A study of Mus musculus with 10 samples.

Results

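The genes described here are the glucocorticoid receptor gene Nr3c1 and 9 genes known from other work to be induced by glucocorticoids or to set the local supply of the hormone: Fkbp5, Tsc22d3, Zbtb16, Sgk1, Ddit4, Dusp1, Mt1, Mt2 and Hsd11b1. They are 10 of the 54532 genes for which the authors deposited 1 FPKM value (sequenced fragments per length of gene, relative to library size) per lung, and they were taken by gene name. The set was chosen with the contrast between the groups already known, so the members were selected on the same FPKM values in the same 10 lungs that are given below. Their differences between the groups are therefore a description, without a test of each gene.

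The study asked what increased pulmonary flow (IPF) does to the growing lung. In the IPF group the wall between the abdominal aorta and the inferior vena cava was punctured on postnatal day 7 (P7), which makes an aortocaval fistula and sends more blood through the lungs. The sham group had the same laparotomy without the puncture. All mice were C57BL/6J, with the genotype given as WT, and whole lungs were taken at postnatal day 30 (P30) from 5 IPF and 5 sham mice. Pups of both sexes were used in the study; the sex and litter of each sequenced lung and the hour of collection are not given in the sources used here. The IPF group models flow through a surgical shunt, both groups were anaesthetised and opened at P7, and each lung is a mixture of all its cell types, so that fewer cells of a type and less RNA per cell cannot be told apart.

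Glucocorticoids (corticosterone in the mouse) enter cells and bind the receptor, which waits in the cytosol in a complex with Hsp90 and its co-chaperones. The bound receptor moves to the nucleus, binds DNA as a dimer at paired copies of a short element, and raises the transcription of genes that damp inflammation, spare fuel and slow growth. The lung is a classical target: the hormone matures the lung and its surfactant before birth, and its level in blood follows the time of day and rises with stress.

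The recovered depth was 15483046 to 17818542 reads on genes in the sham and 16250190 to 19026843 in the IPF libraries. The summed FPKM of 8 alveolar type 2 cell markers lay between 16080 and 25615 in every library. Sums of other markers varied more between lungs: 3713 to 27463 for 5 club cell markers, 309 to 3264 for 6 erythroid markers and 17.2 to 147.6 for heart and skeletal muscle markers. Groups were compared with limma on log2(FPKM + 0.1) over the 20448 genes whose FPKM averaged 0.1 or more, IPF against sham, with Benjamini-Hochberg adjustment over all of them. Fold changes on this scale understate the change of low genes. Beside every difference between the groups below stand those of sex-linked and clock genes. Xist (X-inactivation RNA) lay between 26.8 and 43.2 FPKM in the IPF lungs and between 0.0301 and 0.0767 FPKM in the sham lungs, and the Y-linked gene Ddx3y was at 0 in every IPF lung and between 14.3 and 21.4 FPKM in the sham lungs. Of 19 clock genes, 12 fell and 5 rose: Dbp, a clock output gene, averaged 2.26 ± 0.707 FPKM (SD over 5 lungs) in the IPF and 26.4 ± 2.61 FPKM in the sham group (log2 fold change -3.53, limma adjusted p = 4.99e-07), and Arntl, the core activator, at 5.84 ± 1.503 and 0.366 ± 0.0634 FPKM (log2 fold change 3.63, limma adjusted p = 2.58e-06). The sex pattern and the clock pattern split exactly as the groups do, so the surgery, the sex and the clock phase cannot be told apart in any of these comparisons.

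The promoters of the members are shown first because the receptor and the clock factors act through short DNA words. RefSeq windows of 300 bases around a transcription start (250 before, 50 after; GRCm38.p6) were at hand for 8 of the 10 members, 15 windows in all, with 6 for Sgk1 and 3 for Tsc22d3. Each stretch below is written 5' to 3' on the strand of its gene and lies wholly before the start. In the first pair, capitals mark the receptor word TGTTCT or its reverse complement AGAACA, and in Sgk1 also the E-box CACGTG, which shares 2 bases with the first TGTTCT there.
Sgk1, chr10:21993640-21993759, strand +: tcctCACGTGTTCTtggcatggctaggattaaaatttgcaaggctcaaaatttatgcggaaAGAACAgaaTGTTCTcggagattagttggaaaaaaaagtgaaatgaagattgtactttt
Tsc22d3, chrX:140600628-140600747, strand -: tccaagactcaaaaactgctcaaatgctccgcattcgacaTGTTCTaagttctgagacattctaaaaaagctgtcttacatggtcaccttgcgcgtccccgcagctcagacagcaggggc
Sgk1 held the only paired element among the member windows: AGAACA and TGTTCT with 3 bases between them, which is the textbook glucocorticoid response element. That arrangement occurred in 3 of 32851 RefSeq windows (0.00913%). The single word was found on either strand in 4 of the 15 member windows, all of Sgk1 or Tsc22d3, and in 19.0% of all windows. These matches are a description of the letters and say nothing about binding.
The next stretches carry the E-box, the word bound by the clock activators, in capitals.
Fkbp5, chr17:28486250-28486369, strand -: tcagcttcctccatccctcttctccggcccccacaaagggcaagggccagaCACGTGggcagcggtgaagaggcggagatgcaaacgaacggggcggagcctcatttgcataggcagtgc
Dusp1, chr17:26508528-26508647, strand -: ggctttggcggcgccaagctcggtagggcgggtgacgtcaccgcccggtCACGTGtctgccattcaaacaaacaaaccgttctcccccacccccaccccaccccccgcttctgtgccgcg
An E-box was present in 3 of the 15 member windows (Fkbp5, Dusp1 and Sgk1) and in 7.15% of all windows.
The metallothionein promoters are shown because these genes also answer to zinc. Capitals mark the metal response core, TGCACNC or TGCGCNC on either strand.
Mt1, chr8:94178959-94179078, strand +: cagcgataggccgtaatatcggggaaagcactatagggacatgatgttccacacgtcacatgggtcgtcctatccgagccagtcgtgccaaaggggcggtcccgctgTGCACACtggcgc
Mt2, chr8:94172388-94172507, strand +: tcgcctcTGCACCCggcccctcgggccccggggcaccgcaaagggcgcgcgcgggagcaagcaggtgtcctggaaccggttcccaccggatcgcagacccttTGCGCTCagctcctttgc
The core occurred in 6 member windows, among them Mt1 and Mt2, and in 25.7% of all windows.

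Of the 10 genes, 5 were lower in the IPF group at an adjusted p under 0.05 (Fkbp5, Tsc22d3, Zbtb16, Ddit4 and Mt1), where 2.14% of all genes tested were lower at that limit. None was higher by limma, where 3.71% of all genes were. At an unadjusted p under 0.05, 2 were higher. The share of all genes at that limit was not counted, here or for the lists below. Limma voom on the recovered reads called 1 of the 10 higher, Hsd11b1, beside 840 of all 20448 genes. With a log2 fold change under -1 as well, 4 were lower, against 0.46% of all genes, and 0 were higher at the matching limit, against 0.68%. In 3 (Fkbp5, Zbtb16 and Ddit4) every IPF lung lay below every sham lung, as in 2.77% of all genes tested; in none did every IPF lung lie above, as in 4.52%. With 1 lung left out in turn, the call of Tsc22d3 held in 4 of 10 fits and that of Mt1 in 2 of 10, and 3 genes were left when IPF replicate 1, 2 or 4 or sham replicate 3 or 4 was out. Because the genes were selected on this contrast, nothing is read from these counts. The median log2 fold change of the 10 genes was -0.42, and that of all genes tested 0.0016.

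**Figure D1:**
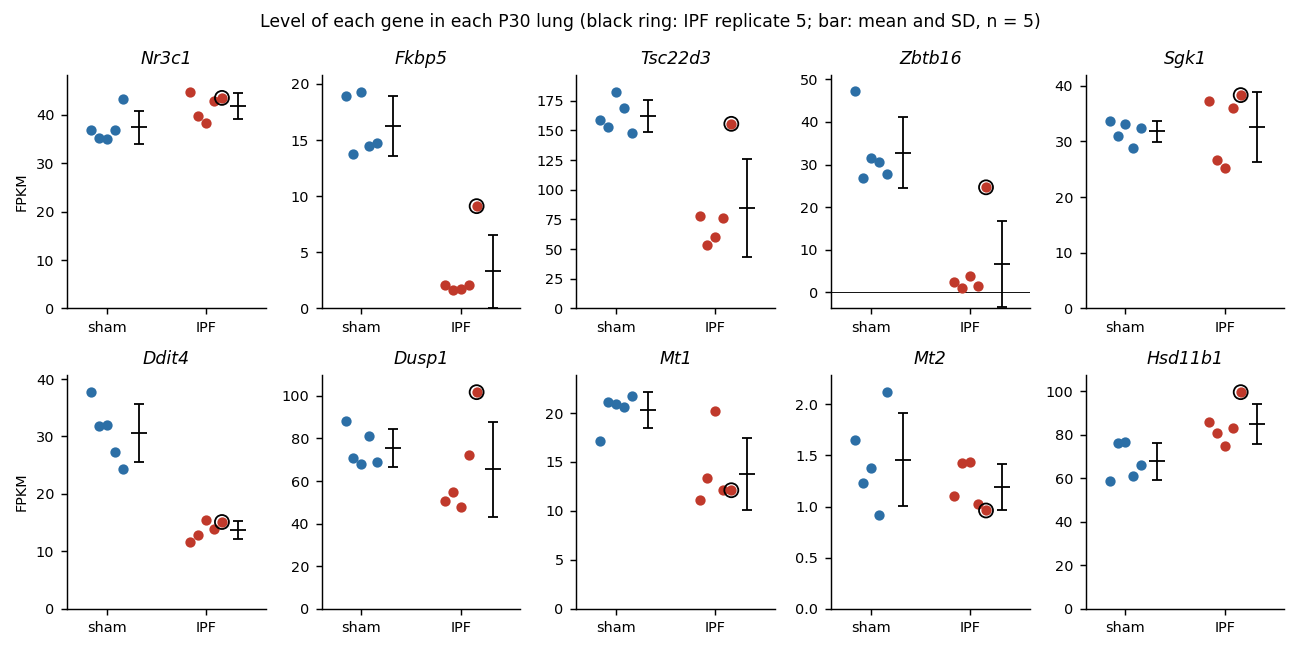
FPKM (vertical axes, each with its own scale) of the 10 genes in the 5 sham (blue) and 5 IPF (red) lungs, with the mean and SD beside the points; the ring marks IPF replicate 5, and the SD bar of Zbtb16 reaches below 0 because of that lung. IPF replicates 1 to 4 had 1.61 to 2.08 FPKM of Fkbp5, IPF replicate 5 had 9.11 FPKM, and the sham lungs had 13.7 to 19.3 FPKM.

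The receptor itself was not lower. Nr3c1 (ENSMUSG00000024431, chromosome 18, 39410545 to 39491301 of GRCm38, minus strand) was at 44.7, 39.7, 38.2, 42.8 and 43.5 FPKM in IPF replicates 1 to 5 and at 36.8, 35.2, 35.05, 36.8 and 43.3 FPKM in sham replicates 1 to 5. The groups overlapped through sham replicate 5, and 2 IPF lungs lay above every sham lung. The means were 41.8 ± 2.71 FPKM in the IPF and 37.4 ± 3.39 FPKM in the sham group (SD over 5 lungs), and the log2 fold change was 0.16 (SE 0.07). Nr3c1 varied little among lungs of a group, with a coefficient of variation of 6.48% in IPF and 9.06% in sham, where the medians of 13445 genes with a mean of at least 1 FPKM were 10.7% and 10.5%.

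Fkbp5 encodes a co-chaperone that binds Hsp90 in the receptor complex and lowers the receptor's affinity for the hormone; its induction is a standard readout of receptor activity. Fkbp5 (ENSMUSG00000024222, chromosome 17, 28399094 to 28517527, minus strand) was at 2.07, 1.61, 1.71, 2.08 and 9.11 FPKM in IPF replicates 1 to 5. In sham replicates 1 to 5 it was at 19.0, 13.7, 19.3, 14.5 and 14.7 FPKM. The groups did not overlap, and IPF replicate 5 stood between them. The sham mean was 4.90 times the IPF mean (16.2 ± 2.66 and 3.32 ± 3.25 FPKM; log2 fold change -2.60, SE 0.40), and 8.69 times the mean of IPF replicates 1 to 4 (1.87 ± 0.241 FPKM, SD, n = 4).

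Zbtb16, a zinc finger repressor that glucocorticoids induce strongly in many tissues and that innate-like lymphocytes need for their development, had the largest log2 fold change of the 10. It (ENSMUSG00000066687, chromosome 9, 48654297 to 48836222, minus strand) was at 2.32, 1.11, 3.81, 1.47 and 24.7 FPKM in IPF replicates 1 to 5. The sham values were 47.3, 26.9, 31.5, 30.6 and 27.7 FPKM. No IPF lung reached the lowest sham lung, but IPF replicate 5 came close to it. The sham mean was 4.92 times the IPF mean (32.8 ± 8.34 and 6.68 ± 10.1 FPKM; log2 fold change -3.25, SE 0.67) and 15.0 times the mean of IPF replicates 1 to 4, which was 2.18 ± 1.201 FPKM. The summed FPKM of 6 markers of innate lymphoid and NKT cells, which express Zbtb16, was 12.8 to 16.1 in the IPF and 11.7 to 13.4 in the sham lungs, with 1 of the 6 called, higher in IPF.

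Tsc22d3 encodes GILZ, a leucine zipper protein that carries part of the anti-inflammatory action of the hormone. Tsc22d3 (ENSMUSG00000031431, chromosome X, 140539528 to 140600659, minus strand) was at 78.2, 53.5, 59.8, 76.3 and 155.5 FPKM in IPF replicates 1 to 5 and at 158.4, 153.1, 182.5, 169.2 and 147.8 FPKM in the sham replicates. IPF replicate 5 lay inside the sham range, and the other 4 IPF lungs lay below every sham lung. The means were 84.6 ± 41.0 and 162.2 ± 13.8 FPKM (log2 fold change -1.04, SE 0.24), and without IPF replicate 5 the log2 fold change was -1.29. Because Tsc22d3 is X-linked and the groups differ in Xist, the X chromosome was looked at as a whole: of its 647 genes tested, 7 were lower and 33 higher in IPF, with a median log2 fold change of 0.0438; of 19759 autosomal genes, 424 were lower and 723 higher, with a median of 0.000419.

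Ddit4 encodes REDD1, which holds back TORC1 and is induced by glucocorticoids, hypoxia and energy stress. Ddit4 (ENSMUSG00000020108, chromosome 10, 59949669 to 59951834, minus strand) was at 11.6, 12.9, 15.4, 13.9 and 15.1 FPKM in IPF replicates 1 to 5 and at 37.7, 31.8, 31.98, 27.3 and 24.4 FPKM in the sham replicates. Here the groups stood apart and IPF replicate 5 sat with the other IPF lungs. The sham mean was 2.23 times the IPF mean and 2.28 times the mean of IPF replicates 1 to 4. Of 12 other genes of TORC1 regulation, 1 fell: Sesn2, another TORC1 inhibitor, was at 6.16 ± 0.578 FPKM in IPF and 8.20 ± 0.455 FPKM in sham (log2 fold change -0.41, SE 0.07, limma adjusted p = 0.00883). Akt1s1, the most abundant of the others, had a log2 fold change of 0.0035. Of 14 hypoxia genes, 2 fell and 2 rose, among them Adm, which rose, and of 11 targets of the integrated stress response and p53, 1 fell and 2 rose.

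Sgk1 and Dusp1 encode a kinase that activates sodium uptake and a phosphatase that switches off p38 and JNK, and both answer quickly to many stimuli besides the hormone. Sgk1 (ENSMUSG00000019970, chromosome 10, 21882184 to 21999903, plus strand), which carries the paired element shown above, was at 37.2, 26.6, 25.1, 35.9 and 38.3 FPKM in IPF replicates 1 to 5 and at 33.7, 30.9, 33.1, 28.8 and 32.3 FPKM in the sham replicates. Of the IPF lungs, 3 lay above and 2 below every sham lung, and the means were close (32.6 ± 6.25 and 31.8 ± 1.94 FPKM; log2 fold change 0.02, SE 0.12). The coefficient of variation was 19.2% in IPF and 6.12% in sham. The table holds 1 value for the whole Sgk1 gene, so its start sites could not be followed apart.

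Dusp1 (ENSMUSG00000024190, chromosome 17, 26505590 to 26508519, minus strand) was at 50.6, 55.0, 47.7, 72.3 and 101.7 FPKM in IPF replicates 1 to 5 and at 88.4, 70.9, 67.8, 81.1 and 68.9 FPKM in the sham replicates. Of the IPF lungs, 3 lay below every sham lung and 1, IPF replicate 5, above them all. The log2 fold change was -0.26 (SE 0.19), and -0.43 without IPF replicate 5. Of 10 tested paralogs of Sgk1 and Dusp1, none fell and 1 rose: Dusp5, a phosphatase of nuclear ERK, was at 5.73 ± 0.735 FPKM in IPF and 4.33 ± 0.274 FPKM in sham (log2 fold change 0.39, SE 0.09, limma adjusted p = 0.0313). The call of Dusp5 held in 3 of 10 fits that left out 1 lung. Dusp7, the most abundant paralog, was at 45.9 ± 8.01 and 57.3 ± 2.95 FPKM (limma adjusted p = 0.092). Of 21 immediate early genes, the class to which Dusp1 is close in its kinetics, 3 fell and 3 rose.

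Mt1 and Mt2 encode the metallothioneins, small zinc-binding proteins induced by metals as well as by glucocorticoids, and the 2 genes lie 5513 bases apart on chromosome 8. Mt1 (ENSMUSG00000031765, 94179082 to 94180327, plus strand) was at 11.1, 13.4, 20.2, 12.1 and 12.1 FPKM in IPF replicates 1 to 5 and at 17.1, 21.2, 20.9, 20.6 and 21.7 FPKM in the sham replicates. Of the IPF lungs, 4 lay below every sham lung, IPF replicate 3 lay inside the sham range, and IPF replicate 5 did not stand apart (log2 fold change -0.58, SE 0.14). Mt2 (ENSMUSG00000031762, 94172664 to 94173568, plus strand) rested on 9 to 19 reads per lung and was at 0.961 to 1.44 FPKM in IPF and 0.919 to 2.12 FPKM in sham, with full overlap. Of 8 other zinc-responsive and zinc transport genes tested, none was called by limma. At an unadjusted p under 0.05, 1 was lower, and limma voom called 1 lower, beside 624 of all 20448 genes. Gclc, the most abundant, was at 43.9 ± 9.72 and 47.5 ± 5.23 FPKM.

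Hsd11b1 encodes the reductase that makes active glucocorticoid from its inert 11-keto form inside cells. Hsd11b1 (ENSMUSG00000016194, chromosome 1, 193221634 to 193264075, minus strand) was at 85.7, 80.6, 74.9, 83.0 and 99.6 FPKM in IPF replicates 1 to 5 and at 58.7, 76.3, 76.7, 61.0 and 66.2 FPKM in the sham replicates. Of the IPF lungs, 4 lay above every sham lung and the fifth, IPF replicate 3, lay inside the sham range (log2 fold change 0.32, SE 0.10). On the opposite strand the gene Lamb3, with up to 27.2 FPKM, overlaps its span, and whether counting used the strand is not given in the sources used here. Hsd11b2, which encodes the enzyme that inactivates the hormone, fell: it was at 1.04 ± 0.229 FPKM in IPF and 2.01 ± 0.311 FPKM in sham (log2 fold change -0.90, SE 0.16, limma adjusted p = 0.0085), with no overlap. It was the 1 gene called among 7 tested genes of steroid binding, conversion and export; H6pd, which feeds the reductase with NADPH, differed by -0.21 in log2 units (limma adjusted p = 0.382), and Nr3c2, the mineralocorticoid receptor, 0.03.

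FPKM is scaled by the gene length given with the deposited values, which need not be the length of the transcript. For Mt1 it was 1246 bases, the whole span of the gene. The order of the genes below is therefore an order of FPKM, and a rough one for the amount of RNA. In the sham lungs Tsc22d3 stood highest at 162.2 FPKM, above Dusp1 (75.4) and Hsd11b1 (67.8), whose lungs overlapped each other; Nr3c1, Zbtb16, Sgk1 and Ddit4 followed between 37.4 and 30.6 FPKM, each overlapping the next, then Mt1 and Fkbp5, which overlapped, and Mt2. In the IPF lungs Hsd11b1 (84.7 FPKM) and Tsc22d3 (84.6 FPKM) overlapped at the head of the order, and Zbtb16 (6.68 FPKM) and Fkbp5 (3.32 FPKM) stood in the last places above Mt2. The receptor kept the fourth place in both groups.

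IPF replicate 5 differed from the other IPF lungs in several of these genes. The place of this lung was computed for genes in which the other 9 lungs did not overlap between the groups. On the log2 scale, with the mean of the other 4 IPF lungs set to 0% and the sham mean to 100%, this lung lay at 73.4% for Fkbp5, 90.4% for Zbtb16 and 95.6% for Tsc22d3, and at 14.9% for Ddit4. Mt1 did not meet that condition because of IPF replicate 3, and its place was -34.7%, beyond the other IPF lungs and away from the sham mean. Among the 20 called genes of a wider list of glucocorticoid-induced genes its median place was 61.5%, with 12 beyond 50%. Among 17 called clock genes the median was 32.7%, with 6 beyond 50%: Dbp lay at 22.1%, Arntl at 24.7% and Nr1d1 at 32.7%, and Per1, which is on both lists, at 69.4%. Over all 1108 called genes whose other 9 lungs did not overlap the median was 25.2%. The same lung had a summed FPKM of 7 neutrophil markers of 300.9, where the other IPF lungs had 52.9 to 74.2 and the sham lungs 15.2 to 72.7; none of the 7 was called, 5 were higher at an unadjusted p under 0.05 and 0 were called by limma voom. Its part in the values of this lung was not tested. The place of a gene is a description of 1 lung and carries no test.

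**Figure D2:**
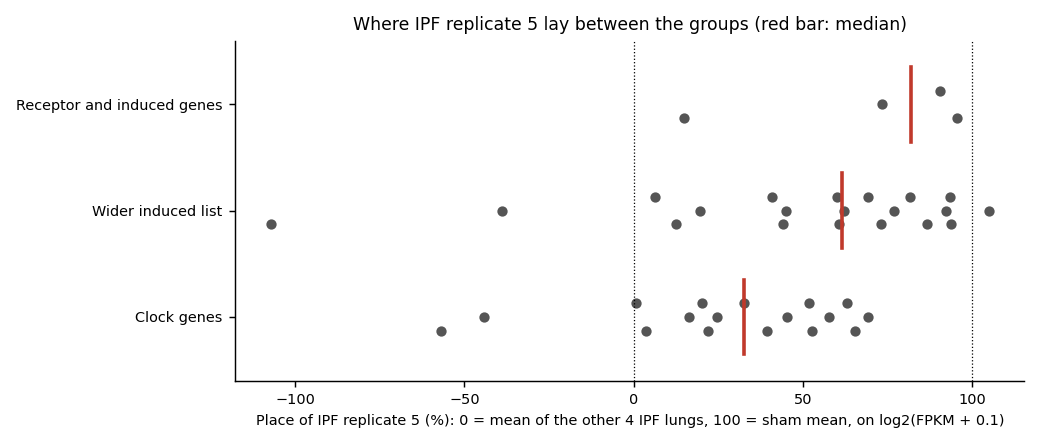
Place of IPF replicate 5 (horizontal axis, in percent) between the mean of the other 4 IPF lungs (0) and the sham mean (100) on log2(FPKM + 0.1), for Fkbp5, Tsc22d3, Zbtb16 and Ddit4, the 20 called genes of the wider induced list and the 17 called clock genes; each point is a gene and the red bars are medians. The medians were 81.9%, 61.5% and 32.7% in that order.

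The other genes of the pathway were taken from a list of 50 genes that glucocorticoids induce in lung, airway, muscle, liver, fat or blood cells, of which 49 could be tested. In the IPF group 18 fell and 2 rose, and 7 of those that fell passed a log2 fold change of -1 as well, where 2.14% of all genes tested fell, 3.71% rose and 0.46% fell past both limits. The fold change was below 0 for 40 of the 49, with a median of -0.45 on the log2 scale. Without IPF replicate 5, 28 fell, and without IPF replicate 2, 11 fell. The count over all genes moved alike, from 437 lower to 670 and 286. With limma voom on the recovered reads 25 fell and 3 rose, beside 624 and 840 of all 20448 genes. The list was written with earlier results of these data known and carries no test of its own.

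Among the genes that fell, Glul, glutamine synthetase, was at 99.96 ± 45.9 FPKM in IPF and 233.5 ± 20.9 FPKM in sham (log2 fold change -1.31, SE 0.22, limma adjusted p = 0.00589). Pdk4, the kinase that shuts pyruvate dehydrogenase, fell by 1.57 on the log2 scale (SE 0.33, limma adjusted p = 0.0173), and Lpin1, a phosphatidate phosphatase and coactivator of fat oxidation, by 1.04 (SE 0.19, limma adjusted p = 0.00825). Map3k6, a stress kinase, fell by 2.03 (SE 0.36, limma adjusted p = 0.0076), and Errfi1, a feedback inhibitor of the EGF receptor, by 0.83 (SE 0.14, limma adjusted p = 0.00589). In all 5 but Pdk4 no IPF lung reached the sham range; for Pdk4, IPF replicate 5 at 7.37 FPKM did.

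Hif3a, a hypoxia-inducible factor subunit, was at 0.307 to 2.69 FPKM in IPF and 2.71 to 5.18 FPKM in sham (log2 fold change -2.31, SE 0.45, limma adjusted p = 0.013). Per1, a clock repressor with a glucocorticoid element, was at 13.3 ± 7.68 and 41.0 ± 5.21 FPKM (log2 fold change -1.77, SE 0.29, limma adjusted p = 0.00574). Klf15, a regulator of amino acid use, fell by 0.97 (SE 0.23, limma adjusted p = 0.0322); this call held in 1 of 10 fits that left out 1 lung, the one without IPF replicate 5, whose 28.6 FPKM lay inside the sham range of 24.5 to 32.6. Fam107a, which encodes an actin-bundling protein, fell by 2.01 (SE 0.27, limma adjusted p = 0.00195), Cables1, a cell cycle regulator, by 0.73 (limma adjusted p = 0.00353), and the arrestin-like genes Arrdc2 and Arrdc3 by 0.71 and 0.45.

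Litaf and Cdkn1a went the other way. Litaf, an endosomal protein named for its link to TNF, rose from 11.7 ± 0.472 to 17.9 ± 0.974 FPKM (log2 fold change 0.61, SE 0.05, limma adjusted p = 0.000157), with no overlap. Cdkn1a, which encodes the cell cycle inhibitor p21 and is also a p53 target, rose by 0.53 (SE 0.11, limma adjusted p = 0.018). Among the most abundant genes that did not pass, Gpx3, a secreted glutathione peroxidase, differed by 0.40 in log2 units (limma adjusted p = 0.0501), Fmo2, a flavin monooxygenase of lung, -0.10, and Tgm2, a transglutaminase, -0.23.

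**Figure D3:**
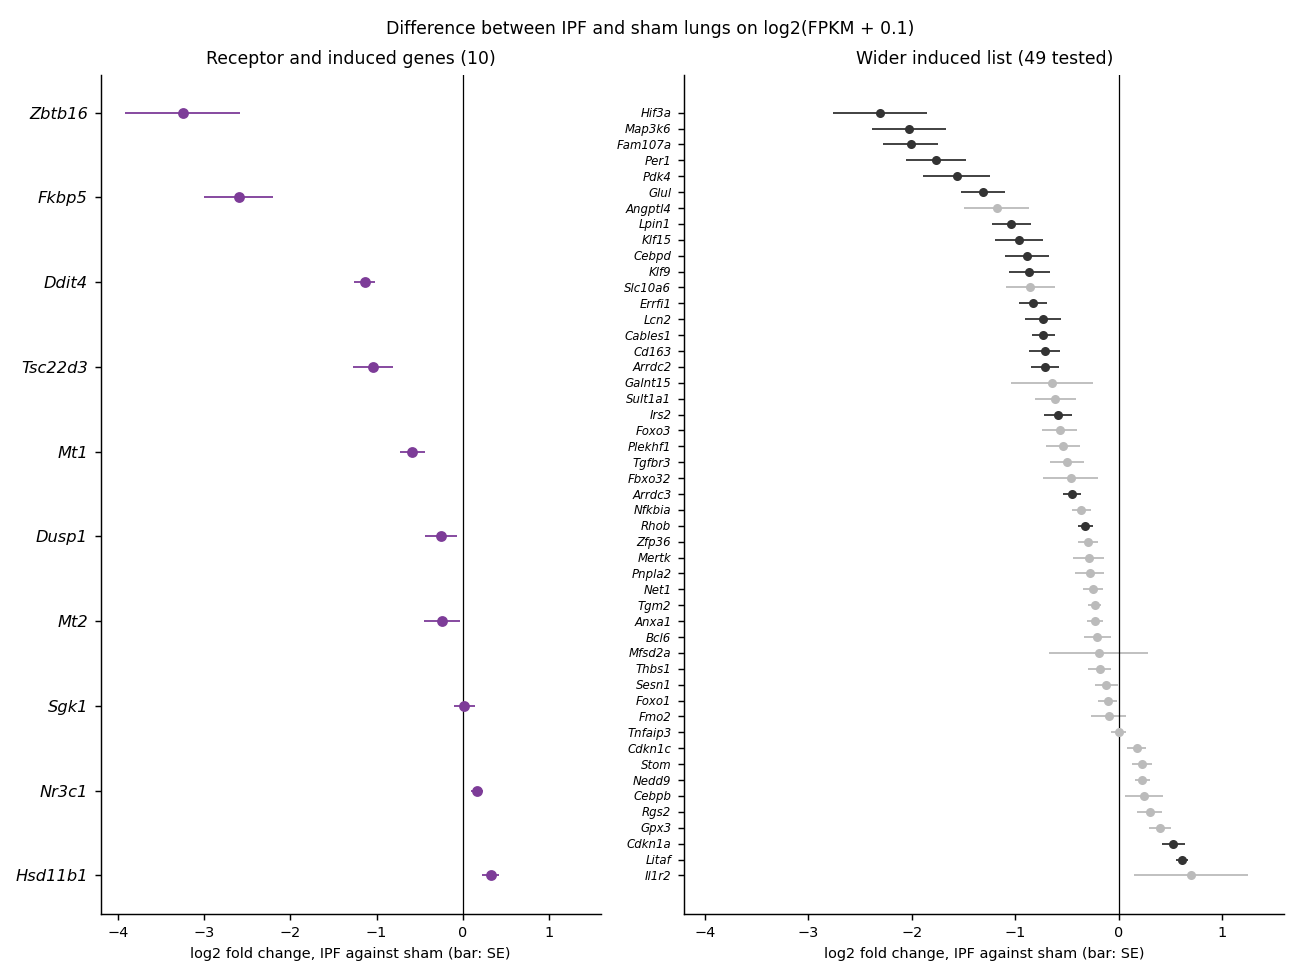
Log2 fold change of IPF against sham (horizontal axes; bars are the SE) for the 10 genes (left) and the 49 tested genes of the wider induced list (right), where black marks an adjusted p under 0.05 and grey the rest. Of the 49, 18 black points lie below 0 and 2, Litaf and Cdkn1a, above.

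Of 12 surfactant and sodium uptake genes that glucocorticoids raise in the lung epithelium around birth, none was called by limma. At an unadjusted p under 0.05, 4 were lower, and limma voom called 3 lower, beside 624 of all 20448 genes. Sftpc, the most abundant, was at 14860 ± 770.9 FPKM in IPF and 14430 ± 2848 FPKM in sham, and Sftpb at 1435 ± 123.1 and 1694 ± 89.8 FPKM. Of 19 tested inflammatory genes that the hormone represses, 2 rose, Ccl2 at 0.613 ± 0.370 against 0.106 ± 0.106 FPKM (limma adjusted p = 0.0371) and Cxcl10 at 1.02 ± 0.129 against 0.492 ± 0.227 FPKM (limma adjusted p = 0.0402); both are chemokines at low levels here, and the calls held in 3 and 2 of 10 fits that left out 1 lung. At an unadjusted p under 0.05, 8 of the 19 were higher and 2 lower, and the share of all genes at that limit was not counted. Limma voom called 3 higher, beside 840 of all 20448 genes. In 4 every IPF lung lay above every sham lung, as in 4.52% of all genes tested. Icam1, an adhesion molecule and the most abundant of the 19, differed by -0.14 in log2 units (limma adjusted p = 0.219).

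Of 24 chaperones, co-chaperones and cofactors of the receptor, 4 rose and 2 fell, beside 3.71% and 2.14% of all genes. The chaperone Hspa8 was at 437.2 ± 58.0 FPKM in IPF and 295.3 ± 45.4 FPKM in sham (log2 fold change 0.57, limma adjusted p = 0.02), and its partners Dnaja1 and St13 and the Hsp90 co-chaperone Ptges3 rose by 0.48, 0.30 and 0.45. Ipo13, an importin that carries the receptor into the nucleus, fell by 0.37 (limma adjusted p = 0.008), and Ppp5c, a phosphatase bound to Hsp90, by 0.27. Of 9 other heat shock genes, 1 fell and 2 rose. Of the 6 named genes, Ipo13 was called in each of 20 alternative fits and the other 5 in 6 to 17. Hsp90ab1, the most abundant of the list, was at 524.8 ± 92.6 and 385.4 ± 24.5 FPKM (limma adjusted p = 0.0764). Markers of B cells moved with the groups as well: 6 of 6 rose, with sums of 37.6 to 55.4 FPKM in IPF and 19.4 to 31.7 in sham. Of 9 endothelial markers 1 rose, with sums of 1402 to 1624 FPKM in IPF and 1224 to 1343 in sham, which did not overlap. Of 8 T cell markers 1 rose and all had a fold change above 0, with sums of 19.1 to 25.1 and 12.1 to 19.2 FPKM. Of 9 fibroblast markers 2 rose, and of 8 smooth muscle and pericyte markers 1 fell. The part of these cells in the values above was not tested.

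Differences between lungs of the same group give a view of the genes that the contrast did not fix. Each lung's log2 value was set against the mean of its own group, and the 10 deviations were correlated between genes. Over the 45 pairs of the 10 genes, 6 had an r over 0.7 and 1 an r under -0.7. Fkbp5 and Tsc22d3 had r = 0.95 (Spearman's rho 0.75; exact within-group permutation p = 0.0041, adjusted 0.184), and r = 0.71 without IPF replicate 5. Fkbp5 and Zbtb16 had r = 0.91 (rho 0.70, exact permutation p = 0.0413, adjusted 0.314), and Tsc22d3 and Zbtb16 r = 0.85 (rho 0.50, exact permutation p = 0.0806, adjusted 0.36). Without IPF replicate 5 these values were 0.30 and 0.13, so both rested on that lung; with the 2 lungs farthest from the median left out, IPF replicates 2 and 5, they were 0.07 and -0.49, and that of Fkbp5 and Tsc22d3 was 0.65. None of the 45 pairs had an adjusted p under 0.05, and 6 had an unadjusted p under 0.05. Nr3c1 had r of 0.23, 0.28 and 0.12 with Fkbp5, Tsc22d3 and Zbtb16. Without sham replicate 5, the highest sham lung in Nr3c1, these values were 0.43, 0.58 and 0.26. With the 2 lungs farthest from the median of Nr3c1 left out, IPF replicate 1 and sham replicate 5, they were 0.64, 0.70 and 0.42. The low values of Nr3c1 thus rested in part on sham replicate 5.

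Sgk1 and Mt1 went opposite ways within the groups. Their r was -0.78 with all 10 lungs and -0.78 without IPF replicate 5, but -0.58 without IPF replicate 3 and -0.39 without the 2 lungs farthest from the median, IPF replicates 2 and 3. Sgk1 with Tsc22d3 had r = 0.72, 0.78 without IPF replicate 5, 0.68 without IPF replicate 3 and 0.62 without IPF replicate 2. None of these pairs passed the adjustment.

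**Figure D4:**
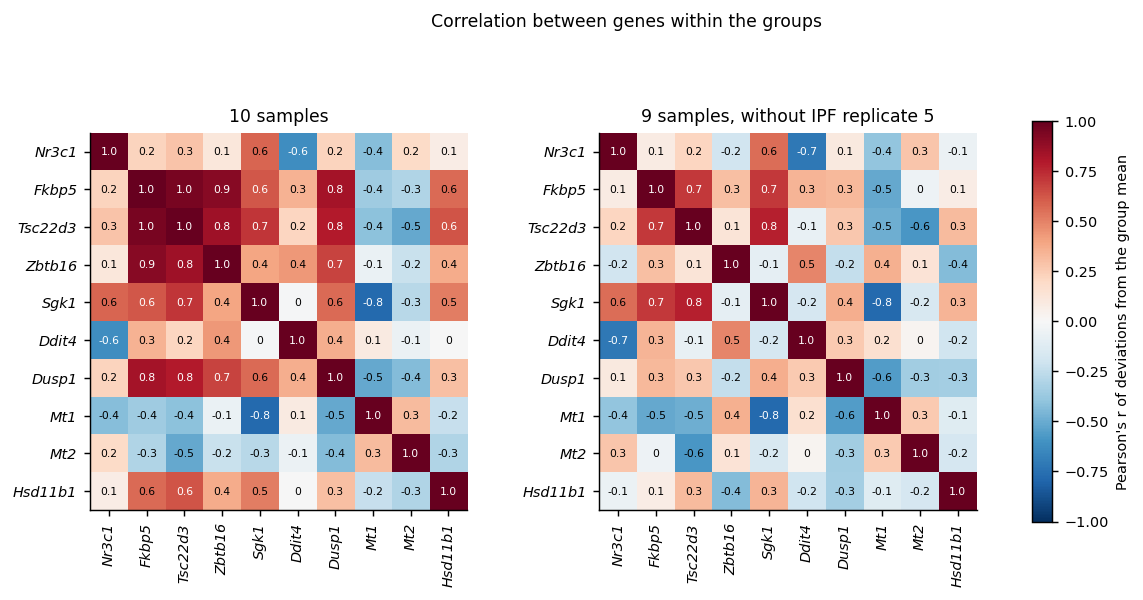
Pearson's r (color and printed value) between the 10 genes, computed on the deviations of each lung from its group mean, with all 10 lungs (left) and without IPF replicate 5 (right). The block of high values that joins Fkbp5, Tsc22d3, Zbtb16 and Dusp1 on the left does not hold on the right, where 3 pairs exceed 0.7: Fkbp5 with Tsc22d3 at 0.71, Tsc22d3 with Sgk1 at 0.78 and Fkbp5 with Sgk1 at 0.71.

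The genes whose deviations followed Fkbp5 most closely, of 13445 genes with a mean of at least 1 FPKM, were Klf15 (r = 0.991), Map3k6 (0.988), Glul (0.986), Pnpla2 (0.985) and Inpp5d (0.979). Klf15, Map3k6, Glul and the lipase gene Pnpla2 are on the wider induced list, and Inpp5d encodes a lipid phosphatase of blood cells. Without IPF replicate 5 their r was 0.898, 0.876, 0.827, 0.872 and 0.860. The genes were picked for this likeness, so the values describe the choice and carry no test. Glul shows its limit: among IPF replicates 1 to 4 it was lowest, at 70.2 FPKM, in replicate 2, which was also lowest in Fkbp5, but highest, at 84.6 FPKM, in replicate 3, which was next to lowest in Fkbp5.

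Over the 47 genes of the wider list with a mean of at least 1 FPKM, the median r with Fkbp5 was 0.75, against 0.0243 over all 13444 genes, and without IPF replicate 5 it was 0.42 against -0.0157. With that lung left out, 17 of the 47 (36.2%) had an r over 0.7, against 3.76% of all genes. With all 10 lungs the clock genes behaved much like the wider list, with a median r of 0.73 and 10 of 19 over 0.7 (52.6%), where the wider list had 24 of 47 (51.1%) and all genes 7.58%. The median r of 6 neutrophil markers was 0.64 with all 10 lungs and -0.04 without IPF replicate 5. Without that lung 2 of the 19 clock genes exceeded 0.7, of which Per1 was one: without IPF replicate 5 the r of Fkbp5 was 0.74 with Per1, -0.33 with Dbp, -0.23 with Nr1d1 and 0.17 with Arntl, where with all 10 lungs it had been 0.92, 0.82, 0.77 and -0.83. The points of these correlations share the libraries, and the list's genes are not independent of each other.

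**Figure D5:**
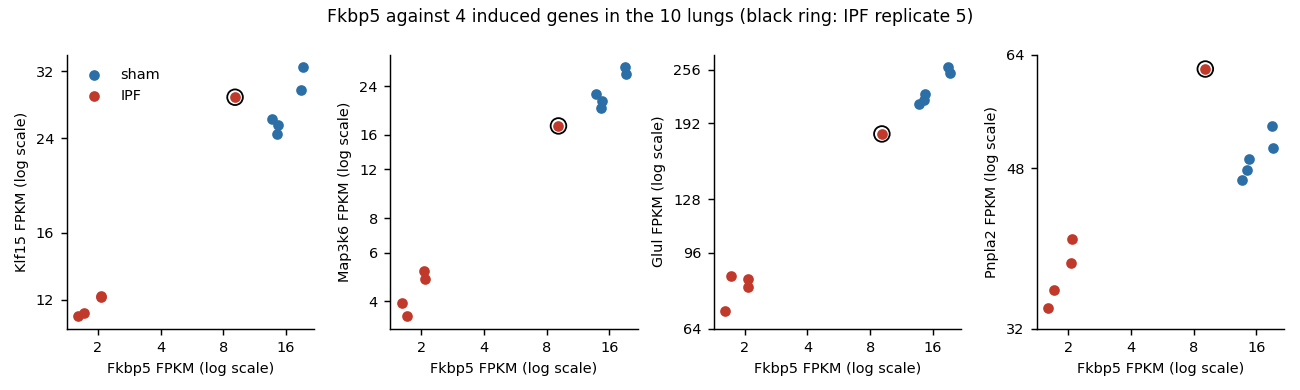
FPKM of Klf15, Map3k6, Glul and Pnpla2 (vertical axes, log scale) against FPKM of Fkbp5 (horizontal axes, log scale) in the 10 lungs, sham in blue and IPF in red; the ring marks IPF replicate 5. IPF replicate 5 lies with or near the sham lungs in all 4 panels. The 4 genes were chosen for their likeness to Fkbp5 within the groups.

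Nr3c1 had another circle of genes. Among those with the closest deviations were Psip1 (r = 0.969), a chromatin-bound coactivator, Ahr (0.949), the aryl hydrocarbon receptor, St8sia4 (0.942), a sialyltransferase, and Impad1 (0.939), a Golgi phosphatase. Without IPF replicate 5 they were between 0.938 and 0.975. Values without IPF replicate 1 or sham replicate 5, the lungs farthest from the median in Nr3c1, were not computed. The genes were picked for this likeness from 13445 genes, so these r describe the choice and carry no test. None of these genes is on the wider induced list. Between the groups Psip1 and Impad1 had log2 fold changes of -0.02 and -0.07, and Ahr rose by 0.37 (limma adjusted p = 0.0401).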

How the data were processed

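Whole-lung mRNA of 5 IPF and 5 sham mice was sequenced at P30. Per the paper, the authors trimmed reads with Fastp, aligned them with HISAT2 to GRCm39, quantified genes with StringTie and tested them with DESeq2; the submitters' processing notes name GRCm38, mm10, hg38 and Bowtie 0.12.2, and the gene positions of the deposited table are those of GRCm38. The library kit is given as KAPA mRNA HyperPrep in the paper and NEBNext Ultra in the labels. The deposited values are FPKM, 1 per gene and sample, for 54532 genes; whole reads were recovered from them, with every value above 0 within 0.1 of a whole read. Intervals and tests cover the spread between these 10 samples.

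Genes with a mean of at least 0.1 FPKM were fitted with limma 3.58.1 (R 4.3.3, variance trend, no covariate) on log2(FPKM + 0.1). This was tested on simulated data. Tables and figures were made in Python 3.11.15 with pandas 2.3.3, numpy 2.4.6 and scipy 1.17.1. The members and lists were chosen with earlier results of these data known. The genes named are the 10 members, up to 12 called genes per pathway list by smallest adjusted p with up to 3 abundant uncalled ones, the 5 closest to Nr3c1 and Fkbp5, and Arntl, Dbp, Nr1d1, Per1, Xist and Ddx3y; called genes of other lists are given by count with up to 3 examples. Cdkn1a was named after its values were seen, and 1 gene that this rule names is not reported here. Alternatives were other pseudocounts, filters, scalings, a replicate block, no variance trend, limma voom and leaving out lungs.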

Additional observations from a re-analysis of the deposited data

Results flagged for a closer look

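A lung was singled out where its gap to the nearest other lung of its group, divided by the range of the group, exceeded Dixon's 95% limit for 5 samples. Chance alone does this in about 1 of 20 groups that are independent and chosen without regard to their values. Over 57 named genes in 2 groups, 21 of 114 were singled out, 14 of them for IPF replicate 5. The groups do not meet that condition, because some genes were picked for following Fkbp5, which that lung set apart. The counts are therefore not read against that rate.

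IPF replicate 5 stood above the other IPF lungs in Fkbp5 (9.11 FPKM), Tsc22d3 (155.5 FPKM) and Zbtb16 (24.65 FPKM). The same held for the induced genes Fam107a (9.26 FPKM), Glul (181.4 FPKM), Map3k6 (17.24 FPKM), Lpin1 (6.065 FPKM), Hif3a (2.687 FPKM), Pdk4 (7.373 FPKM), Fmo2 (669.8 FPKM), Klf15 (28.64 FPKM) and Pnpla2 (61.71 FPKM), and for Inpp5d (14.36 FPKM) and the clock gene Dbp (3.494 FPKM).

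Sham replicate 1 stood apart in Zbtb16 (47.32 FPKM, the highest sham value), Mt1 (17.14 FPKM, the lowest), Sftpc (9437 FPKM, the lowest) and Akt1s1 (13.17 FPKM, the lowest). Sham replicate 5 was highest in Nr3c1 (43.29 FPKM), sham replicate 3 in Sftpb (1854 FPKM), and IPF replicate 3 in Mt1 (20.25 FPKM).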

How the results depend on the processing

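Fkbp5, Zbtb16 and Ddit4 were lower in IPF at the limit in each of 20 alternative fits, Tsc22d3 in 12 and Mt1 in 9. The log2 fold change ranged from -3.05 to -2.21 for Fkbp5, -3.96 to -2.84 for Zbtb16, -1.22 to -1.06 for Ddit4 and -1.30 to -0.91 for Tsc22d3; that of Sgk1 lay on both sides of 0 (-0.05 to 0.11). The number of the 10 genes lower in IPF was 3 to 5 when each lung was left out in turn (3 without IPF replicate 1, 2 or 4 or sham replicate 3 or 4), 3 without the variance trend, and with limma voom 1 was higher. The count of the wider list ran from 11 (without IPF replicate 2) to 28 (without IPF replicate 5), and was 28 without IPF replicate 5 and sham replicate 1, a pair left out after seeing the data. Over all genes, 274 to 670 were lower and 494 to 950 higher with 1 lung left out. Pairs of the 10 genes with an r of at least 0.7 either way numbered 5 to 10, against 7. The deviations of same-numbered lungs had r from -0.02 to 0.10 over the tested genes. Differently numbered lungs were not compared, so these values cannot decide whether the numbers mark pairs. With the replicate block 4 of the 10 and 14 of the wider list were lower, and over all genes 385 lower and 660 higher.

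Counts of called genes in the small lists changed most; the cause was not tested. The epithelial list had 0 called, 1 with the block, with the FPKM limit of 1, or after quantile or median-of-ratios scaling, 3 with voom, 2 without both lungs, and 0 to 2 with 1 lung left out. The repressed list had 2, 1 with either other pseudocount, the FPKM limit of 1 or the block, 0 with no filter or no trend, and 0 to 4 with 1 lung left out. The partners of the receptor had 6, 3 with no filter or quantile normalization, 2 with no trend, 10 without both lungs, and 1 (without IPF replicate 2) to 10 (without IPF replicate 5). The metal list had 0, 1 with quantile normalization or voom, and 0 to 1. The TORC1 list had 1, 2 with the FPKM limit of 1, voom or both lungs left out, and 1 to 2. The paralogs of Sgk1 and Dusp1 had 1, 2 with a pseudocount of 1 or the FPKM limit of 1, 0 with the block or no trend, 3 with voom, and 0 to 2. The immediate early list had 6, 3 with no trend, and 3 to 5. The heat shock list had 3, 5 with the block or both lungs left out, 1 with no trend, and 0 to 7. The stress and p53 list had 3, and 1 to 3. Mt2, with 9 to 19 reads, and Ccl2 are limited by depth.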
